A study of Caenorhabditis elegans with 2 samples.

Results

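Small nucleolar RNA (snoRNA) genes that lie wholly inside the body of a protein-coding gene were examined for binding of the zinc finger protein MCD-1 in Caenorhabditis elegans. In the Ensembl gene models of WBcel235, the assembly of the ce11 build used by the authors, 216 of the 346 nuclear snoRNA genes met this rule. They lay in 192 host genes, of which 168 held 1 member, 21 held 2 and 3 held more, and 4 members had more than 1 host. Their length had a median of 127 bp and ranged from 54 to 325 bp. The measurement was chromatin immunoprecipitation followed by sequencing (ChIP-seq) on whole young adults, 65 hours old, grown from L1 larvae that had been starved after bleaching. All worms were of strain RW12215, whose allele st12215 was made by CRISPR and carries the tags TY1, EGFP and 3xFLAG in the endogenous mcd-1 gene on chromosome II, and DNA bound by the tagged protein was recovered with an antibody against GFP. The 2 biological replicates form 1 group without another condition, and signal from different tissues of the worm is mixed.

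Most snoRNAs guide the chemical modification of ribosomal RNA. Box C/D snoRNAs direct 2′-O-methylation through a complex that contains fibrillarin, and box H/ACA snoRNAs direct pseudouridylation through a complex that contains dyskerin. In many animals snoRNAs are cut out of the introns of their hosts and have no promoter of their own, whereas a number of nematode snoRNA genes, intronic ones included, are known to be transcribed from their own upstream elements. Genes for spliceosomal small nuclear RNAs (snRNAs) carry a proximal sequence element upstream, which is bound by the SNAPc complex. Transfer RNA (tRNA) genes carry internal elements, named box A and box B, which recruit the factors for RNA polymerase III.

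The first question was how many of the hosted snoRNA genes had a peak, and whether the peak belonged to the snoRNA gene or to the promoter of its host. Of the 216 members, 47 (21.8%, 95% Wilson interval 16.8% to 27.7%, counting error only) had the summit of a peak of the authors' conservative list within 200 bp. The same held for 7.55% of all 46890 nuclear genes and for 4.6% of microRNA genes. Members were placed inside genes by definition, so stretches of the median member length were also taken at every position inside genes. A summit lay within 200 bp of 1.29% of such stretches in all protein-coding genes and of 3.58% of those in the host genes. The share was 33.1% (43 of 130) among snoRNA genes that are not wholly inside a protein-coding gene, 34.9% among snRNA genes and 41% among tRNA genes. No test was made of these differences. No control immunoprecipitation was analysed here, so the signal that worms without the tag would give at these sites was not measured. In the lists made by the authors from each replicate alone, 52 and 44 members had a summit within 200 bp; 40 had one in both, and each of these 40 was among the 47.

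**Figure D1:**
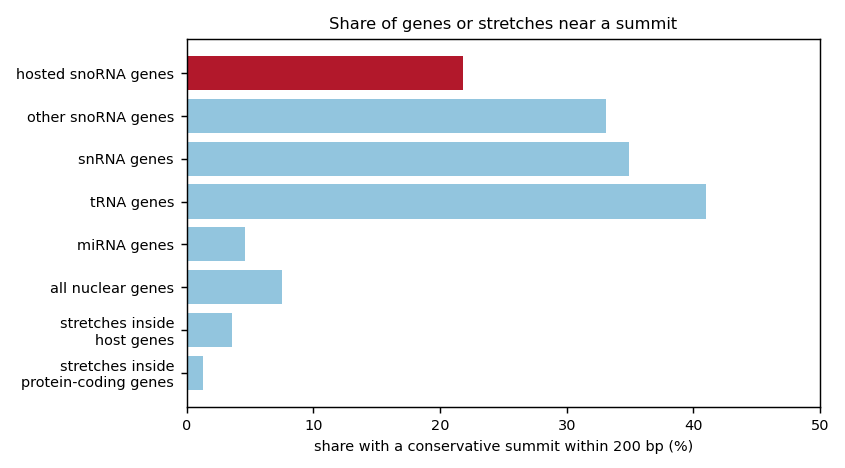
Share of genes, or of stretches of 127 bp inside genes, with a conservative summit within 200 bp (percent, horizontal axis) for hosted snoRNA genes and the sets they were set beside (vertical axis). The bar of the hosted snoRNA genes, at 21.8%, lies above those of all nuclear genes and of stretches inside genes and below those of the other snoRNA genes, snRNA genes and tRNA genes.

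Most of the summits stood immediately upstream of the snoRNA genes. Measured from the 5′ end of the snoRNA gene, with negative values upstream, the strongest summit of each of the 47 members had a median position of -40 bp (quartiles -51 and -13.5 bp). It lay from 100 bp before the 5′ end to that end in 37 members, and downstream of the 5′ end in 8. Over all 216 members, 37 of the 107 summits found within 1000 bp of a 5′ end lay in that interval of 100 bp, whereas no other interval of 100 bp held more than 7 and their median was 4. The median position was -41 bp for the other snoRNA genes, -1 bp for snRNA genes and 8 bp for tRNA genes, whose promoter elements are internal.

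**Figure D2:**
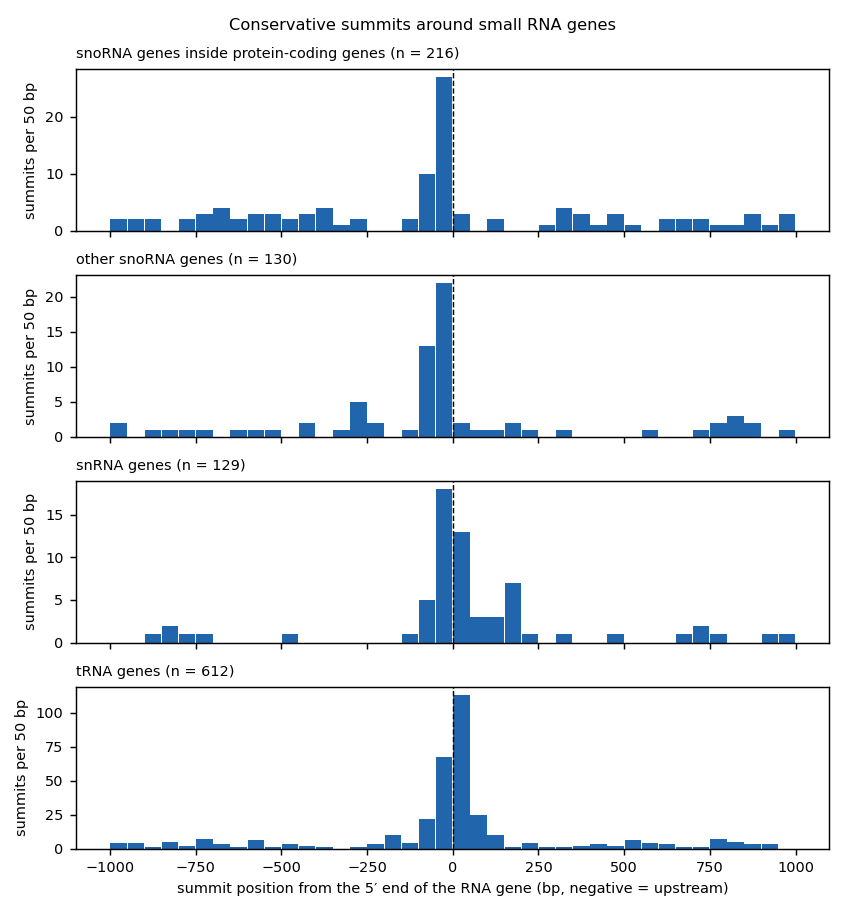
Number of conservative summits per 50 bp (vertical axis) by distance from the 5′ end of the RNA gene in bp (horizontal axis, 1000 bp on either side) for the hosted snoRNA genes and 3 sets beside them. At the hosted snoRNA genes, 37 summits lie in the last 100 bp before the 5′ end, and the position at tRNA genes is centred just after it.

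The summits were next placed against the promoters of the hosts. For 2 of the 47 members, a summit also lay in a host's promoter window, which reaches from 1000 bp before the host's 5′ end to 200 bp after it, and for 45 none did. With the 5′ end of any annotated transcript of the host in place of its outermost 5′ end, the number was 8 of 47. The 47 strongest summits had a median position of 1964 bp from the 5′ end of the nearest host, and the farthest, at C05H8.3, lay 18545 bp into ckk-1, which encodes a calmodulin-dependent protein kinase kinase. Of the 47, 41 lay in the window of no protein-coding gene when each window was set from the gene's outermost 5′ end. The other transcript starts of genes that are not hosts were not counted. The first exception was F39B2.14, in tmem-107, a gene for a membrane protein of the ciliary transition zone. Its strongest summit was at -103 bp from the snoRNA gene, -42 bp from the 5′ end of tmem-107, and also in the window of the ribosomal protein gene rps-26, and its second summit, at 432 bp, had a signal of 180. The second was C02F5.15, which has fbxl-1 among its hosts. Its summit was at -138 bp from the snoRNA gene and at -105 bp from the 5′ end of fbxl-1. The strongest summits of T08B2.13, smy-2, F25H2.14 and C14C10.8 lay in windows of genes that are not hosts. These genes were mrpl-23, C33A12.4, F25H2.12 and mma-1, in that order.

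**Figure D3:**
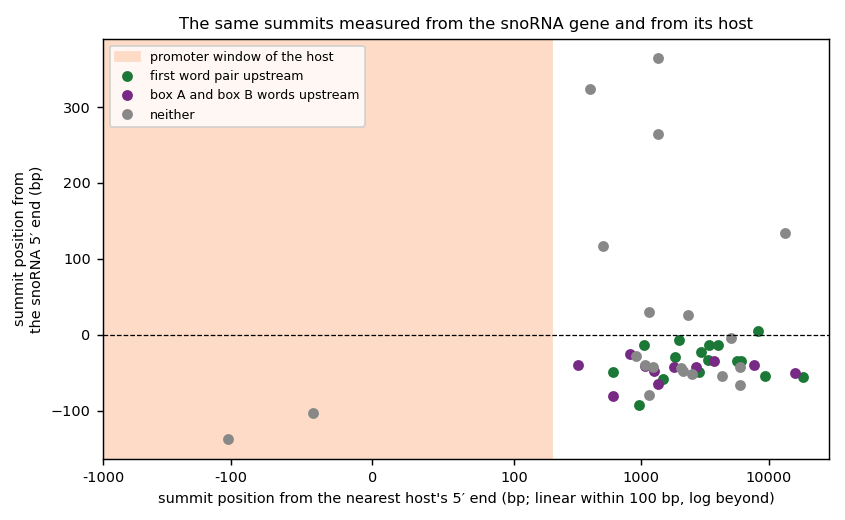
Position of the strongest summit of each of the 47 members from the 5′ end of the nearest host (horizontal axis, bp, linear within 100 bp and logarithmic beyond) and from the 5′ end of the snoRNA gene (vertical axis, bp), coloured by the words found upstream. Only 2 points lie in the shaded promoter window of the host, and most points lie in a narrow band just below 0 on the vertical axis.

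The bases upstream of the members were then compared for short words that recur beside these summits. Words were looked for on the strand of the snoRNA gene, from 100 bases before its 5′ end to 20 after it. The words were written down after the sequences had been compared, so the counts describe these sequences and are no independent support. The first kind was AACNCG, 5 bases of any letter, and TGTC, without a mismatch, which resembles the proximal sequence element of snRNA genes. Windows of 6 members with a summit are shown with both words in capitals, 5′ to 3′ (WBcel235):
Y55F3BR.9 (chrIV:867114-867233, minus strand): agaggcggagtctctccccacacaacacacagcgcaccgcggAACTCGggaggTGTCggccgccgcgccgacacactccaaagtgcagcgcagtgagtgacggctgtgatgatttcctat
ZK994.7 (chrV:8500479-8500598, plus strand): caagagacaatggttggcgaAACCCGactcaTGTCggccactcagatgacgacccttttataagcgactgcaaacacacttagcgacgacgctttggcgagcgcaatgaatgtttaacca
F01D5.12 (chrII:14018422-14018541, minus strand): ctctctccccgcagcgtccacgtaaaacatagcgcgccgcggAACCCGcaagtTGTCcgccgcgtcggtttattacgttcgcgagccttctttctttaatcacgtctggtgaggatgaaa
T06D8.11 (chrII:11224082-11224201, plus strand): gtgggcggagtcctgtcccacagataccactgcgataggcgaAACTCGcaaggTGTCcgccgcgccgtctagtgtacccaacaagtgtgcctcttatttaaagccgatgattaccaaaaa
C08D8.3 (chrV:8349008-8349127, plus strand): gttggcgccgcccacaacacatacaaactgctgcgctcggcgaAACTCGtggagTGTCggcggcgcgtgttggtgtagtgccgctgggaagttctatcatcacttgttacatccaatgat
smy-2 (chrIV:9511447-9511566, minus strand): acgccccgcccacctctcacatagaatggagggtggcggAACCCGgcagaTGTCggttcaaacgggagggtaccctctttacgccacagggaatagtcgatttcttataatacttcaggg

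This pair was found in 16 of the 47 members with a summit (34%) and in 2 of the 169 without (1.18%). It was found in 30 of the 129 snRNA genes, in 17 of the 130 other snoRNA genes and in 1 of the 612 tRNA genes. A summit lay within 200 bp of 19 of these 30 snRNA genes, against 34.9% of all snRNA genes. The same held for 13 of these 17 snoRNA genes, against 33.1% of all 130, and for the 1 tRNA gene. The pair was in 0.0601% of the 19973 windows at the 5′ ends of protein-coding genes. Of windows of the same length laid end to end inside protein-coding genes, on each strand, it was in 0.0961%. AACNCG began between -80 and -54 bp in the 16 members, with a median of -58 bp, and in 15 of them from -66 to -54 bp. The exception was ZK994.7, at -80 bp. The median start over all 30 snRNA genes with the pair was -59 bp. The summit lay after the start of AACNCG in 15 of the 16 members, by a median of 26.5 bp over all 16. The 2 members with the pair and no summit were Y73B6A.14 and C02C6.13, with AACNCG at -56 and -59 bp, and their windows are shown for comparison:
Y73B6A.14 (chrIV:6664536-6664655, minus strand): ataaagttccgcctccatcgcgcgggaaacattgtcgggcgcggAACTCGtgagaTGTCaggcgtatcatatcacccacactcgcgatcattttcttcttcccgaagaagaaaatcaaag
C02C6.13 (chrX:15552468-15552587, minus strand): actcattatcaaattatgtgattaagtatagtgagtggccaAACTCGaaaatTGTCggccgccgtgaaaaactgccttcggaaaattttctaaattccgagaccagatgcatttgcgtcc

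The second kind resembled the internal elements of a tRNA gene. It consisted of a box A word, GGCNNAGTG, and a box B word, TTCGANNCC, which began 25 to 60 bases later, with up to 1 mismatch in each. Windows of 4 members with a summit are shown with both words in capitals (WBcel235):
Y38F2AR.14 (chrIV:2408616-2408735, minus strand): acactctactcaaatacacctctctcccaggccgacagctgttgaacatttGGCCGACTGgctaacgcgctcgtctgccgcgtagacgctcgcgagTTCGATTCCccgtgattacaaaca
T03F7.8 (chrV:11314158-11314277, plus strand): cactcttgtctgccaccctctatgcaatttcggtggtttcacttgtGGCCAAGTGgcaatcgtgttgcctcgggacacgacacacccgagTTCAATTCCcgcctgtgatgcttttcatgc
Y43F8C.22 (chrV:19643168-19643287, minus strand): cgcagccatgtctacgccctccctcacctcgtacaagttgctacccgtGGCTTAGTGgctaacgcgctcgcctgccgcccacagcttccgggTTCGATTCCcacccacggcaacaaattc
M106.6 (chrII:10840217-10840336, plus strand): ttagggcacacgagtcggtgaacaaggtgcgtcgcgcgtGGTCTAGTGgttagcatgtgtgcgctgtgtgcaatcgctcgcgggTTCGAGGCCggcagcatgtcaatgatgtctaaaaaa

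These words were found upstream of 11 of the 47 members with a summit (23.4%) and of 3 of the 169 without (1.78%); no member held both kinds. These counts depended on the mismatches allowed: without any, the words were at 1 member with a summit and 1 without, and with up to 2 in each they were at 30 with and 36 without. With up to 1 mismatch, the words were in 0.11% of the windows at protein-coding 5′ ends and in 0.228% of the windows inside protein-coding genes. Of the 130 snoRNA genes not wholly inside a protein-coding gene, 8 held the words upstream. A summit lay within 200 bp of 3 of these 8, and of 33.1% of all 130. The words were chosen from the sequences of the hosted members, and 8 genes are few. These counts therefore cannot show whether this set differs from the hosted members. Searched in the gene itself, the same words were found in 323 of the 612 tRNA genes and in 1 hosted snoRNA gene. At the 11 members box A began between -75 and -49 bp and box B between -32 and -4 bp, so that the pair ended close to the 5′ end of the snoRNA gene. The summit lay between the start of box A and the end of box B in 9 of the 11. No gene of biotype tRNA or snRNA lay within 200 bp of the strongest summit of any of the 47 members. A pseudogene began within 200 bp of the summit at 3 of them, T08B2.t1 at T08B2.13, F19H8.t1 at F19H8.6 and D1046.t1 at D1046.6, with the summit 26, 22 and 37 bp after its 5′ end. Their names have the form that 610 of the 612 tRNA genes carry. At 15 of the 47 members, the 5′ end of a gene of biotype ncRNA lay within 200 bp of the summit, T06D8.17 at T06D8.11 (4 bp) and Y37E3.29 at Y37E3.20 (25 bp) among them. No share over all conservative summits is given beside these counts of pseudogenes and ncRNA genes, so they cannot show an excess at the members. The 3 members with the words and no summit were T24H7.6, R166.7 and C17D12.8, and the window of T24H7.6 is shown:
T24H7.6 (chrII:6248617-6248736, plus strand): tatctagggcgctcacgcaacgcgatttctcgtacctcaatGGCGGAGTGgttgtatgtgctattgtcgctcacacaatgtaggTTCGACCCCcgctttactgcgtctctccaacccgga

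**Figure D4:**
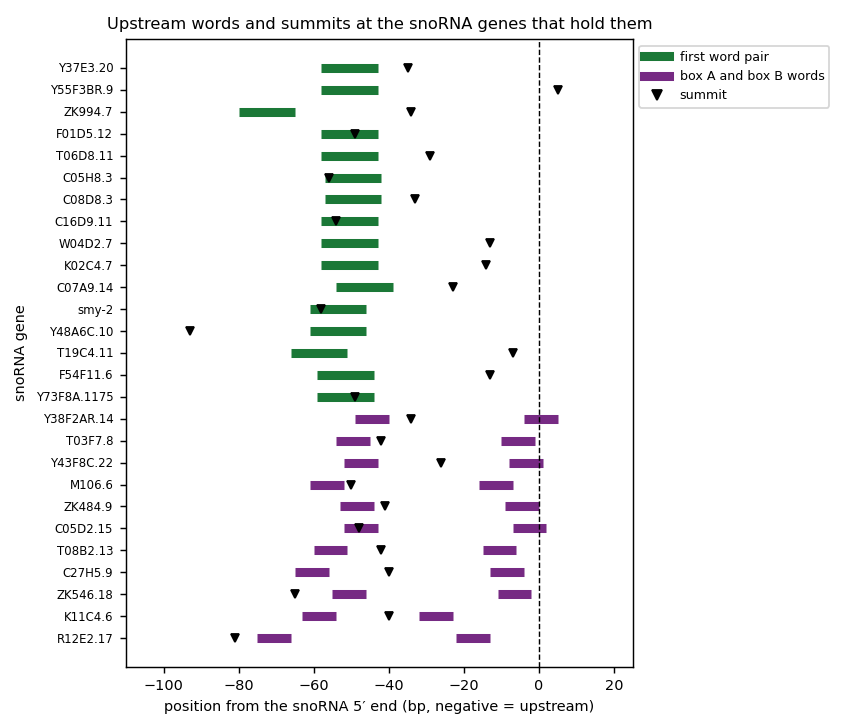
Positions of the upstream words and of the strongest summit (triangle) in bp from the 5′ end of the snoRNA gene (horizontal axis) for the 27 members that hold a pair of words and have a summit (vertical axis). The first word pair starts from -66 to -54 bp in 15 of 16 members. At the members with the box words, 9 of 11 summits lie between the start of box A and the end of box B.

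The peaks at the members were then compared by their signal value, the authors' own measure of enrichment for each peak, and its scaling is unknown. The 47 members had 47 distinct peaks, since C51F7.3 and C51F7.4 shared a peak and F39B2.14 had 2. Their median signal was 264, against 148 over the 3903 conservative peaks, and 38 of the 47 reached the median of the list and 21 its upper quartile. The median was thus 1.78 times that of the list, and in the lists made from replicate 1 or replicate 2 alone the ratio was 1.12 and 1.52. They ranked between 206 and 3155 in the list. For each replicate, the value of the overlapping peak in its own ranked list was divided by that replicate's median over all conservative peaks, and values below are such multiples. No member differed by more than 2-fold between the replicates, with a median ratio of 1.13 and a largest ratio of 1.8. The replicate 1 value was the higher in 23 of the 47 members. Conservative peaks were selected by the authors for similar ranks in the replicates, which favours such likeness.

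**Figure D5:**
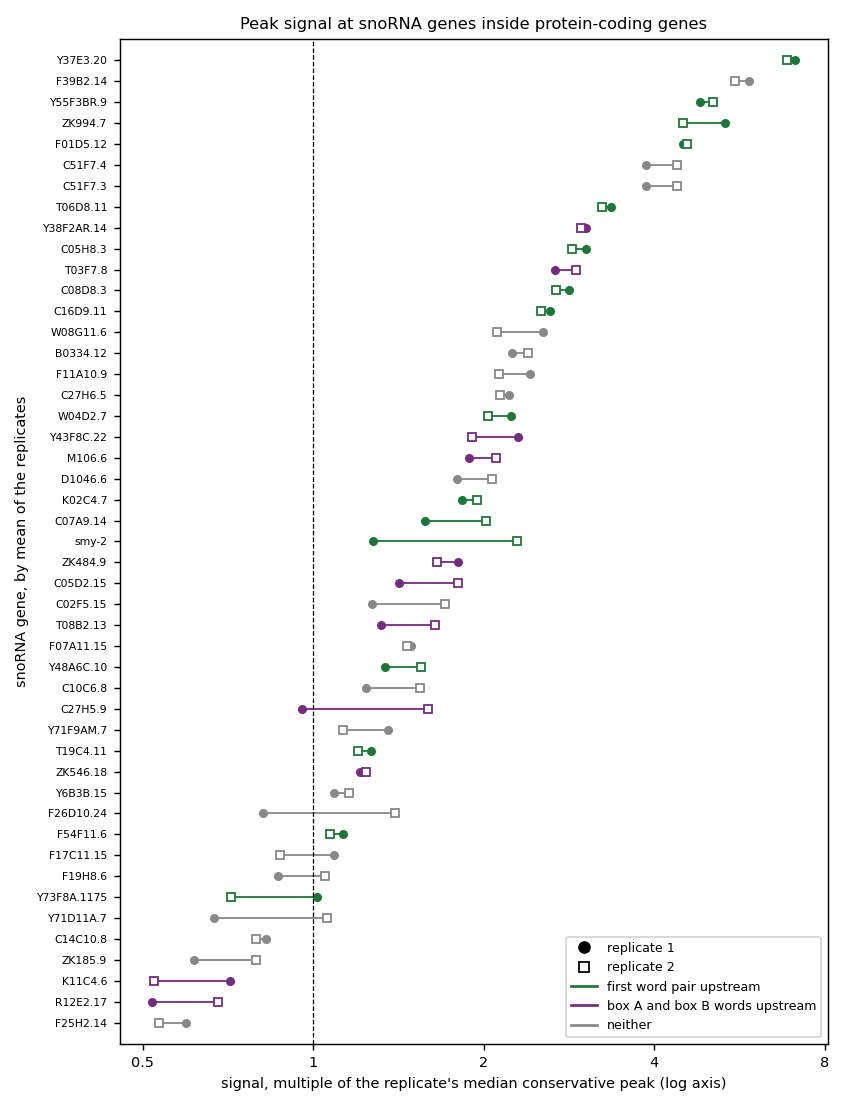
Signal at each of the 47 members (vertical axis, ordered by the mean) as a multiple of the replicate's median conservative peak (horizontal axis, logarithmic), with replicate 1 as filled circles, replicate 2 as open squares and the colour giving the upstream words. The means run from 0.565 to 6.98, and the replicates lie close together at most members.

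Members with the AACNCG and TGTC pair had a median multiple of 2.35 and a range of 0.865 to 6.98. The strongest was Y37E3.20 (WBGene00044925), in pcyt-2.1, a gene of phosphatidylethanolamine synthesis, with 7.11 in replicate 1 and 6.86 in replicate 2 (mean 6.98 ± 0.175 SD, n = 2). Y55F3BR.9 (WBGene00023183), on the strand opposite to its host Y55F3BR.2, gave 4.81 and 5.08 (4.95 ± 0.19). Both values of both members lay well above the median peak. ZK994.7 (WBGene00044958), in the peroxidasin gene pxn-1, gave 5.34 and 4.5 (4.92 ± 0.591), and its peak spanned 8500384 to 8500700 on chromosome V. F01D5.12 (WBGene00045139) gave 4.5 and 4.56 (4.53 ± 0.0437), and its peak spanned 14018314 to 14018645 on chromosome II. The upstream sequences of Y55F3BR.9, ZK994.7 and F01D5.12 are among those printed above with this pair.

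T06D8.11, in plpr-1, followed with 3.36 and 3.24 (3.3 ± 0.0864). C05H8.3, in ckk-1 and opposite to it, gave 3.03 and 2.87 (2.95 ± 0.118). C08D8.3 gave 2.83 and 2.68 (2.76 ± 0.105). The replicates of these 3 members did not overlap with those of the 4 above. C16D9.11, in the receptor tyrosine kinase gene rol-3, had a mean of 2.58 ± 0.0665, and W04D2.7, in the innexin gene inx-11, one of 2.13 ± 0.141. K02C4.7 in ltd-1 (1.89 ± 0.0847) and C07A9.14 in the sodium/calcium exchanger gene ncx-7 (1.8 ± 0.312) were both opposite to their hosts. The gene smy-2 is annotated as a snoRNA but carries the name of the SmY RNAs, small RNAs linked to trans-splicing, and it had the widest replicate difference of all 47 members, with 1.27 and 2.29 (1.78 ± 0.717). The 4 remaining members with the pair were Y48A6C.10 in sup-35 (1.44 ± 0.148), T19C4.11 in the G protein gene gpa-1 (1.23 ± 0.0465), F54F11.6 in sre-45 (1.1 ± 0.0425) and WBGene00220205 in the polycystin gene pkd-2 (0.865 ± 0.211). Of these, Y48A6C.10 and WBGene00220205 were opposite to their hosts.

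Members with the box A and box B words had a median multiple of 1.61 and a range of 0.598 to 3. Y38F2AR.14 (WBGene00023467) was the strongest, with 3.03 and 2.97 (3 ± 0.0412), and its peak spanned 2408488 to 2408798 on chromosome IV. T03F7.8 (WBGene00045071), opposite to the cuticlin-like gene cutl-18, gave 2.67 and 2.91 (2.79 ± 0.172). Y43F8C.22 gave 2.3 and 1.91 (2.11 ± 0.281), and M106.6, 16021 bp into the condensin gene mix-1, gave 1.89 and 2.1 (1.99 ± 0.152). In M106.6 and Y43F8C.22 the replicates overlapped each other's range, so their order was not resolved. The other members of this kind that were named by their signal were ZK484.9 in haf-9 (1.73 ± 0.107), C05D2.15 in madf-11 (1.61 ± 0.271), T08B2.13 in the phenylalanyl-tRNA synthetase gene fars-1 (1.48 ± 0.231), C27H5.9 in pdl-1 (1.27 ± 0.453) and ZK546.18 in the Mediator gene mdt-4 (1.22 ± 0.0196). ZK484.9 and C27H5.9 were opposite to their hosts. The summit of T08B2.13 also lay in the promoter window of mrpl-23.

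The 20 members with a summit and neither pair had a median multiple of 1.43. This kind was set by the upstream pairs alone, so its members can hold other box words. The longer box A word, counted further below, lay beside the summits of Y71F9AM.7, B0334.12 and C14C10.8. The longer box B word lay beside the shared summit of C51F7.3 and C51F7.4. No other member of this kind had a longer box word there. The summits of F19H8.6 and D1046.6 lay in the pseudogenes with tRNA-like names given above. F39B2.14 gave 5.89 and 5.55 (5.72 ± 0.243), the second highest of all members, at the shared promoter of tmem-107 and rps-26. C51F7.3 and C51F7.4, side by side in frm-7, shared 1 peak from 12303470 to 12303780 on chromosome V, with 3.87 and 4.39 (4.13 ± 0.361), whose summit lay 79 bp before C51F7.3 and 30 bp into C51F7.4. Among the others with a mean above 1.9 were W08G11.6 (2.33 ± 0.307), B0334.12, opposite to the potassium channel gene twk-5 (2.32 ± 0.106), F11A10.9 in rbm-34 (2.27 ± 0.205), C27H6.5 in the stonin gene unc-41 (2.18 ± 0.0599) and D1046.6 in cfim-2, which encodes a cleavage factor subunit (1.93 ± 0.197). Lower means were found at F07A11.15 in din-1 (1.48 ± 0.0177), C02F5.15 (1.49 ± 0.312), C10C6.8 in catp-8 (1.39 ± 0.214), Y71F9AM.7 in the Golgi gene cogc-3 (1.24 ± 0.159), Y6B3B.15 in the ceramide synthase gene lagr-1 (1.12 ± 0.0488), F17C11.15 in the translation elongation factor gene eef-1G (0.98 ± 0.152) and F19H8.6 in mltn-9 (0.958 ± 0.128). F07A11.15 and Y6B3B.15 were opposite to their hosts. The 7 weakest members, 5 of which held neither pair, had signals of 87.7 to 130 and means of 0.565 to 1.1. Ranges of the 3 kinds overlapped, and no test was made between them.

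The snoRNA genes themselves were then classed by simple words on their own strand. Box C was TGATGA in the first 25 bases with box D, CTGA, in the last 25, and box ACA was ACA that started 6 to 4 bases before the 3′ end. By these strict words, 10 members were of the C/D kind, 58 had an ACA box and 148 had neither. A summit stood within 200 bp of 4 of the 10, 11 of the 58 (19%) and 32 of the 148 (21.6%). A member of each kind with a summit is shown with the box words in capitals (WBcel235):
C51F7.3 (chrV:12303708-12303783, plus strand): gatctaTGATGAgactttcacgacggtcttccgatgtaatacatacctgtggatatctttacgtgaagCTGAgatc
C10C6.8 (chrIV:11474059-11474191, minus strand): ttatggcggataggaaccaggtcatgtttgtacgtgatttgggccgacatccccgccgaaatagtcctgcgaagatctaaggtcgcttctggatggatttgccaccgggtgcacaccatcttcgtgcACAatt

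Strand, length and place within the host were compared next. Of the 183 members on the same strand as a host, 34 (18.6%) had a summit, and of the 33 on the strand opposite to every host, whose RNA the host transcript does not contain, 13 (39.4%) did. Among these 13, 6 held the AACNCG and TGTC pair and 3 the box words. Of the 61 members shorter than 100 bp, 22 (36.1%) had a summit, against 25 of the 155 longer ones (16.1%). Of the 169 members wholly in introns, 41 (24.3%) had a summit, and of the 47 that overlapped an exon of a protein-coding gene on either strand, 6 (12.8%) did. Strand, length and upstream words went together in part, and their separate shares were not tested.

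Members with a summit were on each autosome and ranged from 6 of 44 on chromosome III (13.6%) to 14 of 39 on chromosome V (35.9%). On chromosome X, 0 of 10 had a summit, which allows a share of up to 30%. Peaks inside genes were also fewest there, with a summit within 200 bp of 0.724% of stretches in its protein-coding genes, against 0.972% on chromosome V and 1.73% on chromosome III. The 2 chromosomes with the lowest background therefore had the lowest and the highest share of members.

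The hosts divided differently from their snoRNA genes. Of the 192 hosts, 64 (33.3%) had a summit in their own promoter window, against 13.2% of all 19973 protein-coding genes. This held for 13 of the 14 ribosomal protein hosts, for each of the 3 translation factor hosts and the 2 chaperone hosts, and for 46 of the 173 others (26.6%). The shares over all ribosomal protein, translation factor and chaperone genes were not counted, so these counts cannot show a trait of snoRNA hosts. Whether the 5′ end of another gene lay nearer to these summits was not counted either. None of the 21 members in ribosomal protein genes had a summit within 200 bp, which allows a share of up to 14.3%. At rpl-7A the promoter summit reached 41.1 and 38.8 (40 ± 1.65), at -75 bp, while neither of its members, Y24D9A.10 and Y24D9A.9, had a summit. Among hosts with a member summit, 10 of 47 had a promoter summit (21.3%), against 54 of 145 hosts without one (37.2%).

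The 3 hosts with 3 or more members had a promoter summit and no member with one. The gene nol-56 encodes a core protein of the box C/D complex and holds 4 members, and its promoter gave 1.85 and 1.76 (1.81 ± 0.0671) at -240 bp. The topoisomerase II gene top-2 holds 3 and gave 5.95 and 5.51 (5.73 ± 0.313). The ribosomal protein gene rpl-6 holds 3 and gave 2.49 and 1.73 (2.11 ± 0.539).

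At the distance limit, the 5 members whose summit was nearest to 200 bp from within were F17C11.15 (147 bp), F26D10.24 in the HSC70 gene hsp-1 (141 bp), C02F5.15 (138 bp), F39B2.14 (103 bp) and F25H2.14 in the TCTP gene tct-1 (99 bp). The 5 nearest beyond it were Y46G5A.40 in pisy-1 (207 bp), C24A1.8 in elf-1 (218 bp), C16A3.11 in rps-13 (237 bp), F54E7.10 in rps-12 (251 bp) and Y24D9A.10 in rpl-7A (274 bp). The last 3 of these hosts are ribosomal protein genes. The signals of the nearest summits ranged from 97.3 to 884 within the limit and from 67.1 to 4520 beyond it, the highest being the promoter peak of rps-12. Of the 169 members without a conservative summit, 93 (55%) had one in the longer ranked list behind it, with signals of 2.05 to 111 and a median of 30.9. A ranked summit lay within 200 bp of 28.6% of stretches inside protein-coding genes. Stretches in the host genes alone were not counted for this list. In the conservative list their share was the higher, 3.58% against 1.29%.

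The protein genes that act with snoRNAs were looked up by name. Of 45 listed genes of snoRNP assembly, ribosome biogenesis and RNA processing, 39 matched a gene, and 23 of these (59%) had a summit in the promoter window, against 13.2% of all protein-coding genes. In 12 of the 23 the listed gene was the protein-coding gene whose 5′ end was nearest to the summit, and in 11 another gene was nearer. The fibrillarin gene fib-1 was the highest, with 13.9 and 13.5 (mean multiple 13.7 ± 0.292). The dyskerin gene dkc-1 gave 2.28 and 2.19 (2.24 ± 0.0595), and ruvb-1 and ruvb-2, for helicases of snoRNP assembly, had means of 4.51 ± 0.611 and 2.27 ± 0.128. The exosome gene exos-8 gave 4.98 and 4.38 (4.68 ± 0.419), while nucl-1, nol-6 and dis-3 were among the 16 without a promoter summit.

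Words listed from other work were also counted in the 50 bases on either side of each of the 47 member summits, on both strands. These words too were chosen with earlier results of these data known, so their counts are no independent support. The longer box A word was present at 7 (14.9%), against 1.28% of all 3903 conservative summits, and the longer box B word at 3 (6.38%), against 2.28%. The E2F-like word GCGCGAAA was at 0 of the 47, which allows a share of up to 6.38%, against 2.51% of all. TTTGAA was at 4 (8.51%, against 16.6%) and GAGCG at 13 (27.7%, against 31.8%). The pairs written down after these sequences had been compared were counted in the same way, and that choice fixes the direction of their difference. The AACNCG and TGTC pair was at 14 of the 47 (29.8%), against 1.69% of all summits, and the box A and box B words were at 9 (19.1%), against 2.46%.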

How the data were processed

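ChIP-seq of tagged MCD-1 was measured in 2 biological replicates of 1 group. The authors deposited narrowPeak lists on ce11, made by thresholding at an irreproducible discovery rate (IDR), per the deposited file descriptions; the sources used here name no aligner or peak caller. The deposited signal is the caller's enrichment value, the deposited score a whole number from 830 to 1000 that follows the IDR, and the summit is the start plus the deposited offset. Depth is unknown, since the lists hold no read counts, and no control was analysed here. All 161945 nuclear peaks ended inside the WBcel235 chromosomes, and gene models were Ensembl release 115. The genome sequence came from RefSeq's copy of WBcel235. The conservative list was the main list. Members were named if they were among the 40 with the highest signal, were nearest the distance limit or had a host with 3 or more members; others named were chosen after their values were seen. The members, lists and words were chosen with earlier results of these data known. The values of a replicate came from the overlapping ranked peak with the nearest summit. The tools were scipy 1.17.1 and numpy 2.4.6 under Python 3.11.15, with matplotlib 3.10.9 for plots; the steps were tested on simulated data. Nothing says whether the replicates were separate cultures. Alternatives were other lists, distances, windows, members and word rules.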

Additional observations from a re-analysis of the deposited data

How the results depend on the processing

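The number of members with a summit within 200 bp, 47, stayed within 1.5 times its value with the pooled list, the stronger peaks alone, a distance of 500 bp, the peak interval, hosts on the same strand, introns alone, without smy-2, and with summits outside every protein-coding window or in the last 100 bp before the 5′ end; without one replicate it ranged from 44 to 52. It fell to 4 with the summit inside the snoRNA gene. The number with a summit in a host's window, 2, was 0 with the summit inside the gene, 0 in introns alone, 10 at 500 bp, 5 with the peak interval, 8 with any transcript's 5′ end and 6 with any protein-coding gene, and still 2 with each replicate left out in turn. The 64 hosts with a promoter summit became 53 to 58 without one replicate. The median member peak, 1.78 times the list median, ranged from 1.12 to 1.52 without one replicate. The AACNCG and TGTC pair, at 16 members with a summit and 2 without, was at 16 and 5 with up to 1 mismatch, and at 16 and 2 on either strand or over 300 bases upstream; these looser searches can only add members. The box words, at 11, were at 1 without a mismatch and at 30 with up to 2 in each, where 36 members without a summit also held them. The cause of these changes was not tested. The added searches and summit positions were chosen after seeing the data. Of the 47 mean multiples, 4 moved by at least 1 SD with the highest overlapping ranked peak and all 47 with scaling by the mean, which is 2.14 and 2 times the median in the replicates; leaving out a replicate moves a mean of 2 by less than 1 SD by construction. No paired analysis was possible because there is only 1 group. Depth, tissue of origin and signal against a control limit these values and were not measured.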
